A study of Mus musculus with 9 samples.

Results

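Transcripts of 9 genes that encode neutrophil and eosinophil granule or cytosolic proteins were followed through RNA-seq libraries of sorted mesenchymal cells, as a gauge of granulocyte RNA left in the sorted fraction. The genes were given as a list by name (Ngp, Camp, Ltf, Elane, Mpo, Prg2, S100a8, S100a9 and Lyz2), and all 9 were found among the 23420 genes of the count tables. All 9 also passed the filter on low counts, which left 15635 genes tested. The cells came from C57BL/6 mice with no treatment named, aged 3 to 4 weeks, and 3 libraries were made from each of 3 tissues: thymus, bone (a pool of femur, tibia and pelvis) and the dermis of trunk skin. In every group the cells carried SCA1, a stromal and progenitor surface protein encoded by Ly6a, and were negative for a lineage cocktail. That cocktail held antibodies against CD45, CD11b and GR-1, which mark leukocytes, myeloid cells and granulocytes, as well as CD2, CD4, B220, TER119, CD41, EpCAM and CD31. At least 25000 sorted cells went into each sample. Bone fragments were digested, then crushed, and red cells were lysed, whereas the thymus steps name neither crushing nor lysis and the sources used here do not give the skin steps. Tissue and preparation cannot be told apart. One thymus library is labelled 1-3, without a statement of what this means, and it may share material with thymus 2 and thymus 3. No label ties the libraries of a tissue to separate mice, so the p-values rest on the spread among these samples alone, and that spread may be technical.

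Granulocytes are made in bone marrow, and their granules are filled in sequence as the cells mature. Azurophil granules come first, at the promyelocyte stage, and carry myeloperoxidase (Mpo) and neutrophil elastase (Elane). Specific granules follow at the myelocyte stage and carry lactoferrin (Ltf), the cathelicidin antimicrobial peptide (Camp) and neutrophilic granule protein (Ngp). S100a8 and S100a9 encode the subunits of calprotectin, which fills the cytosol of neutrophils and is not a granule protein. Prg2 encodes major basic protein of eosinophil granules, and Lyz2 encodes lysozyme M, which neutrophils, monocytes and macrophages all make. The transcription factors C/EBP alpha, C/EBP epsilon and PU.1 drive many of these genes in developing granulocytes.

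Gene reads per library ranged from 78757872 to 116759235. Stromal identity genes were abundant in each tissue. Col1a1 was at an RPKM (reads scaled by gene length and library size) of 2712 ± 280 in bone, 1447 ± 141 in thymus and 13909 ± 607 in skin (n = 3 each). Errors of levels and shares are SD throughout, and errors of log2 differences and log2 fold changes are SE. Ly6a stood at 280.1 ± 43.8 CPM (read counts scaled to a common depth by library size and TMM factor) in bone, 427 ± 49.7 in thymus and 948 ± 380 in skin. Ly6g, the gene of the GR-1 antigen of neutrophils, was not analysed here, since no row of the count tables carries that symbol.

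In the mouse build mm10, 3 of the genes lie on chromosome 9, namely Camp at 109847377 to 109849456, Ngp at 110419808 to 110423012 and Ltf at 111019292 to 111042766. Camp and Ngp are 570 kb apart, and Ngp and Ltf 596 kb. S100a8 (chromosome 3, 90669071 to 90670034) and S100a9 (90692633 to 90695691) are 22.6 kb apart. Elane (chromosome 10, 79886312 to 79888216) is 3.14 kb from Prtn3, the gene of proteinase 3. Lyz2 (chromosome 10, 117277541 to 117282272) is 5.52 kb from its near-identical paralogue Lyz1, so reads of this pair may be shared. Mpo lies on chromosome 11, 87793784 to 87804412, and Prg2 on chromosome 2, 84980461 to 84983632. All 9 are protein coding in GENCODE M21, which uses the same build. In that annotation 8 of them overlapped no other gene, and Mpo overlapped an antisense transcript, Gm11505. The sources used here do not give the strand setting of the counting, so reads of Mpo and Gm11505 cannot be told apart.

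The bases before the start sites of 4 members are shown because these genes represent the specific and the azurophil granule classes, whose levels are set side by side below. They are the 250 bases before the RefSeq start site in GRCm38.p6, the same build as mm10, read on the strand of the gene. Capitals mark matches on either strand to TTGCNNAA, a core of C/EBP sites, or GAGGAA, a core of PU.1 and other Ets sites. The Ngp and Ltf windows are chr9:110419558-110419807 and chr9:111019042-111019291, both on the plus strand. The Elane and Mpo windows are chr10:79886062-79886311 and chr11:87793534-87793783, also on the plus strand.
Ngp: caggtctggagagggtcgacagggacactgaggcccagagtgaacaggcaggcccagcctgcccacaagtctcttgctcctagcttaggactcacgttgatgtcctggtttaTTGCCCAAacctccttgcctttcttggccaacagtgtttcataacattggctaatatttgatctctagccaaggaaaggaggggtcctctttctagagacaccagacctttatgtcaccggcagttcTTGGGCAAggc
Ltf: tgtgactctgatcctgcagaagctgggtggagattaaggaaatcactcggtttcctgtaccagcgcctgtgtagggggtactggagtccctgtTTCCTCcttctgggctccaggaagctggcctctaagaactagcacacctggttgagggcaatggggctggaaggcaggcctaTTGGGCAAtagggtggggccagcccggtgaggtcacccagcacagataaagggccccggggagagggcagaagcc
Elane: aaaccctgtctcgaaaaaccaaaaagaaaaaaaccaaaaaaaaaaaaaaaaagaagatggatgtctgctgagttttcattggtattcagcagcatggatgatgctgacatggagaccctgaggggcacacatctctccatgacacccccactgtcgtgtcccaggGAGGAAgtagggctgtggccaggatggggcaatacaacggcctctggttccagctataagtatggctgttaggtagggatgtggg
Mpo: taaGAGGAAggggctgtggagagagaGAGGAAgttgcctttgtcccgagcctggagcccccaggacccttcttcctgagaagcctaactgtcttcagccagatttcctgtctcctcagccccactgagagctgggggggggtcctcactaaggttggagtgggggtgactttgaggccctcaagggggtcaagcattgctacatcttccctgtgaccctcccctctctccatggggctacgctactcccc
Ngp held 2 matches to TTGCNNAA, at -138 to -131 and at -11 to -4 from the start site, and Ltf held 1 at -75 to -68. Ltf also held GAGGAA on the opposite strand at -157 to -152. Elane held GAGGAA at -85 to -80, and Mpo held it at -247 to -242 and at -224 to -219. None of the matches overlapped another. GENCODE M21 starts these genes earlier, Ngp at 110419747, Ltf at 111019271, Elane at 79886247 and Mpo at 87793581. Part of each window thus lies inside the gene as GENCODE draws it. Of the matches in these windows, only that of Ngp at -11 to -4 lies there. Of the 8 members with a window in the table (all but Prg2), 3 held TTGCNNAA (Ngp, Ltf and S100a9), against 9.56% of 32851 windows of the same length. GAGGAA was in 4 of the 8 (Ltf, Elane, Mpo and S100a8), against 23.3% of all windows. These matches describe letters and not binding.

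Bone carried more of each of the 9 transcripts than thymus or skin. The 9 genes took 0.413%, 0.373% and 0.49% of the gene reads in the bone libraries 1, 2 and 3. In thymus 2, 3 and 1-3 they took 0.00162%, 0.0048% and 0.00182%, and in skin 1, 2 and 3 0.00171%, 0.000945% and 0.00362%. The mean share was 0.425 ± 0.0595% for bone, 0.00275 ± 0.00178% for thymus and 0.00209 ± 0.00138% for skin (n = 3 each, errors are SD). Without thymus 3 the thymus mean was 0.00172%, and without skin 3 the skin mean was 0.00133%. The bone libraries stood apart from all 6 others, while the ranges of thymus and skin overlapped. In these bulk samples, fewer cells of a type and less RNA per cell cannot be told apart.

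**Figure D1:**
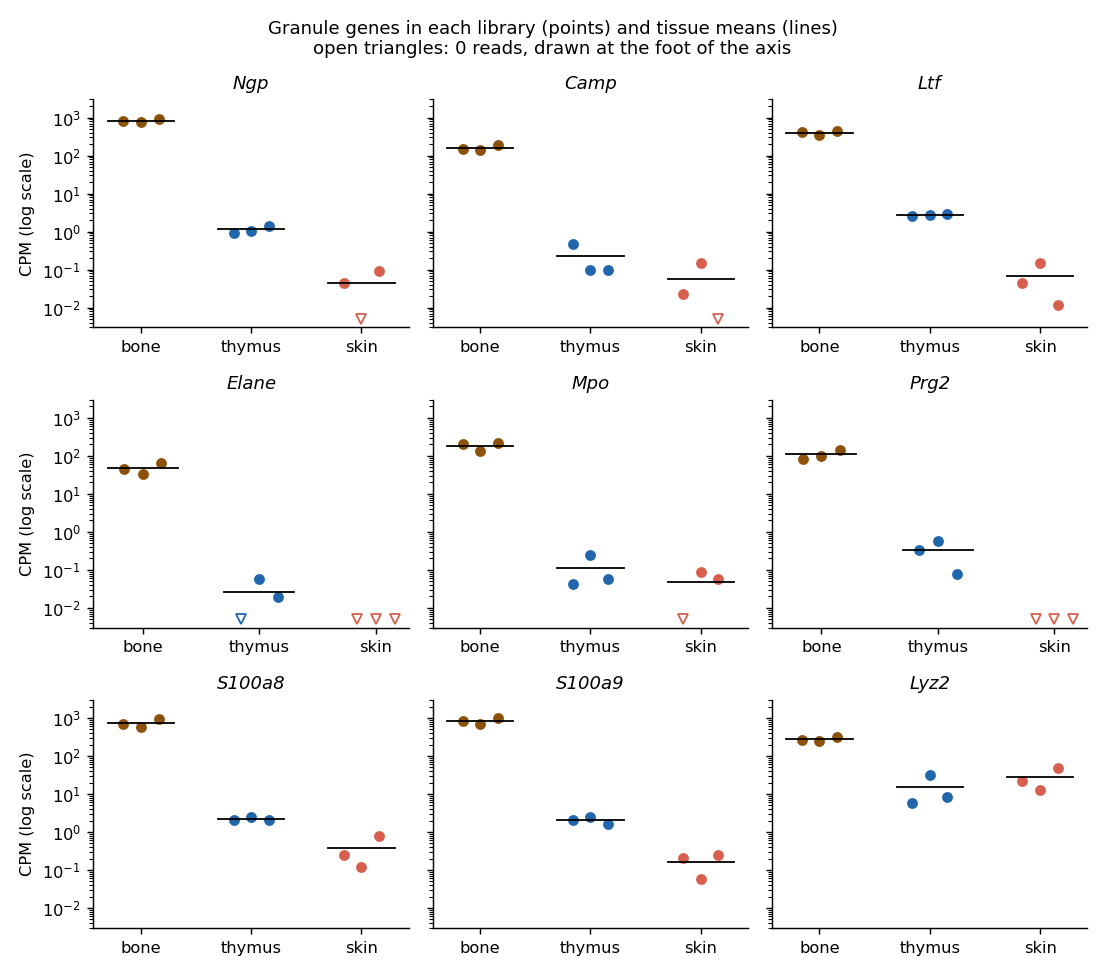
Each panel shows 1 granule gene, with the level in CPM on a log axis and 1 point per library of bone, thymus and skin. Lines are tissue means and open triangles are libraries with 0 reads. All 3 bone points lie above all thymus and skin points in each of the 9 panels, and the gap is narrowest for Lyz2.

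Specific granule genes were the most abundant granule class in bone. Ngp, whose protein belongs to a family related to cystatins and cathelicidins, was at 829.5, 745 and 899.9 CPM in bone 1, 2 and 3. In thymus 2, 3 and 1-3 Ngp was at 0.923, 1.05 and 1.44 CPM, and in skin 1, 2 and 3 it had 4, 0 and 8 reads. The groups did not overlap, and the log2 fold change of Ngp was 9.50 ± 0.34 for bone minus thymus (SE, adjusted p = 1.6e-08 by edgeR's quasi-likelihood test with Benjamini-Hochberg adjustment) and 14.01 ± 0.43 for bone minus skin (adjusted p = 5.71e-09). Without skin 3 the skin mean went from 0.0457 to 0.0225 CPM and the log2 difference from skin was 14.92.

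Ltf, which encodes the iron-binding protein lactoferrin, was at 409.2, 355.9 and 444.7 CPM in bone 1, 2 and 3. It was at 2.63, 2.79 and 2.97 CPM in thymus 2, 3 and 1-3, and had 4, 10 and 1 reads in skin 1, 2 and 3. The thymus libraries had a coefficient of variation of 6.15%, and all stood between those of bone and skin. Ltf was higher in bone than in thymus by 7.17 ± 0.29 on the log2 scale (edgeR adjusted p = 3.25e-08), a smaller difference than the 9.50 of Ngp. For each read of Ngp there were 0.493, 0.478 and 0.494 reads of Ltf in bone 1, 2 and 3, against 2.85, 2.64 and 2.06 in thymus 2, 3 and 1-3. The ratios of these groups did not overlap, and their difference was not tested.

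Camp, the gene of the cathelicidin peptide, was at 154, 138 and 192 CPM in bone 1, 2 and 3. Thymus 2 held 58 reads of Camp, while thymus 3 held 12 and thymus 1-3 held 10. The thymus mean of 0.228 ± 0.224 CPM thus rested on thymus 2 and was 0.0992 without it. Camp had 2, 10 and 0 reads in skin 1, 2 and 3. Bone was higher than thymus by 9.43 ± 0.66 on the log2 scale (edgeR adjusted p = 5.74e-06) and higher than skin by 11.62 ± 0.78 (edgeR adjusted p = 2.95e-06). These log2 differences of Camp were 10.65 without thymus 2 and, against skin, 13.65 without skin 2 and 11.00 without skin 3, with a skin mean of 0.0112 CPM without skin 2 in place of 0.0563.

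The azurophil granule genes Mpo and Elane had at most 29 reads in any thymus or skin library. Mpo was at 205.6, 131 and 215 CPM in bone 1, 2 and 3, and had 5, 29 and 6 reads in thymus 2, 3 and 1-3 and 0, 6 and 5 in skin 1, 2 and 3. Its log2 fold change was 10.61 ± 0.59 for bone minus thymus (edgeR adjusted p = 1.43e-06). Elane was at 46, 33.5 and 64.2 CPM in bone 1, 2 and 3. It had 0, 7 and 2 reads in thymus 2, 3 and 1-3, and Elane was higher in bone by 10.76 ± 0.61 on the log2 scale (edgeR adjusted p = 4.38e-06). Without thymus 3, the thymus mean of Mpo went from 0.114 to 0.0504 CPM and that of Elane from 0.0261 to 0.0098. The log2 differences between bone and thymus were then 11.81 for Mpo and 12.17 for Elane, while Elane was at 10.16 without thymus 2. Skin held 0 reads of Elane in all 3 libraries, which allows up to 3 reads or 0.0123 CPM over the group, so Elane was at least 3892-fold higher in bone than in skin. This floor covers counting error only.

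In bone the calprotectin genes had the highest levels per length among the 9. S100a8 was at 709, 578 and 919.6 CPM in bone 1, 2 and 3, at 2.01, 2.49 and 2.04 in thymus 2, 3 and 1-3, and at 0.247, 0.117 and 0.784 in skin 1, 2 and 3. S100a9 was at 850.5, 696 and 999 CPM in bone, 2.06, 2.55 and 1.65 in thymus and 0.202, 0.0586 and 0.242 in skin, in the same order of libraries. For both genes every thymus library was above every skin library, and every bone library above every thymus library. Bone was higher than thymus by 8.40 ± 0.51 on the log2 scale for S100a8 (edgeR adjusted p = 2.41e-06) and by 8.67 ± 0.33 for S100a9 (edgeR adjusted p = 3.06e-08). S100a9 gave 1.2, 1.2 and 1.09 reads per read of S100a8 in bone 1, 2 and 3, and 1.02, 1.02 and 0.808 in thymus 2, 3 and 1-3.

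Prg2, the eosinophil gene of the list, was at 80.6, 101.6 and 146 CPM in bone 1, 2 and 3. It had 40, 69 and 8 reads in thymus 2, 3 and 1-3 and 0 reads in every skin library. Bone was higher than thymus by 8.34 ± 0.61 on the log2 scale (edgeR adjusted p = 3.68e-05). Against the skin floor of 3 reads over the group, Prg2 was at least 8892-fold higher in bone and at least 26.9-fold higher in thymus. Without thymus 3 the thymus mean of Prg2 was 0.207 CPM in place of 0.33, and the log2 difference between bone and thymus was 8.99.

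Lyz2 differed from the other 8 in its level outside bone. It was at 271.5, 250.04 and 308.4 CPM in bone 1, 2 and 3, at 5.66, 30.9 and 8.16 in thymus 2, 3 and 1-3, and at 21.7, 12.9 and 47.6 in skin 1, 2 and 3. Bone lay above both other tissues without overlap, but by less than for any other member, at 4.21 ± 0.70 on the log2 scale against thymus (edgeR adjusted p = 0.00134) and 3.33 ± 0.67 against skin (edgeR adjusted p = 0.00263). Thymus 3 and skin 3 were the highest of their groups, and without them the means went from 14.9 to 6.91 CPM in thymus and from 27.4 to 17.3 CPM in skin. The log2 differences of Lyz2 were then 5.32 against thymus and 4.00 against skin. Mean levels of Lyz2 were 18.6-fold higher in bone than in thymus and 10.1-fold higher than in skin.

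By edgeR's quasi-likelihood test 9 of the 9 members were called higher in bone than in thymus, where 16.1% of all tested genes were (32.6% were called in either direction). Each of the 9 differed by 16-fold or more, as did 3.47% of tested genes. The smallest difference, that of Lyz2, was 4.21 ± 0.70 on the log2 scale (SE). It was 3.82, under 16-fold, in the lowest of the alternative settings. The members' median log2 difference was 8.67, against -0.02 over all genes tested. Against skin 9 of 9 were also called higher in bone, with 23.7% of all genes called in that direction, 23.4% in the other and 47.1% in either, and 8 of 9 differed by 16-fold or more, against 4.46% of genes. In each of these comparisons every bone library was above every library of the other tissue for all 9 members, as for 24.1% of genes against thymus and 29.3% against skin. The bone libraries enter both comparisons. The members were chosen with earlier results of these data known, so these counts are not an independent test. Elane and Mpo, with at most 29 reads in any thymus or skin library, passed the filter on low counts through bone.

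**Figure D2:**
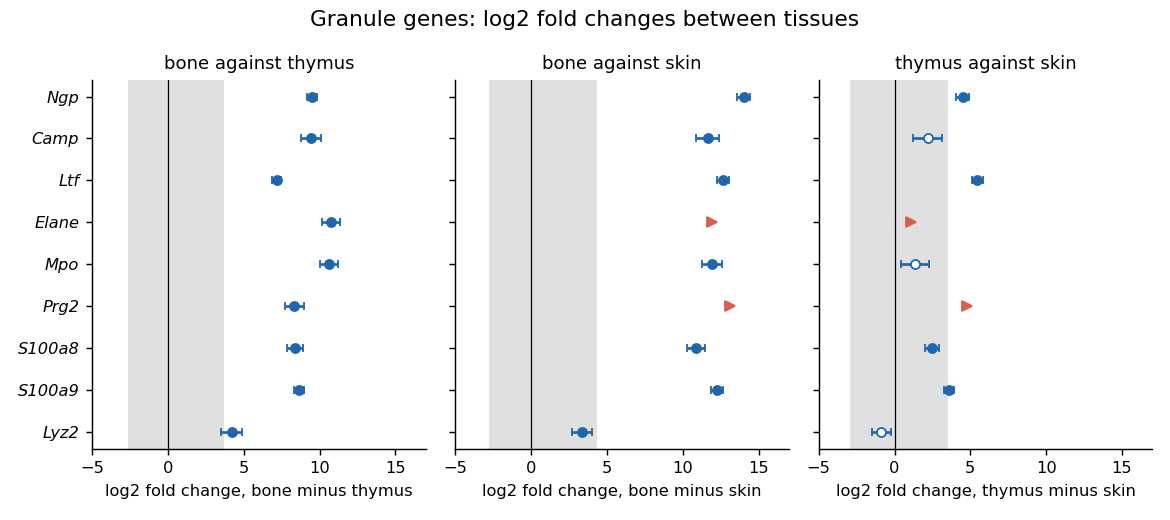
The log2 fold change of each granule gene is shown for the 3 comparisons, with bars of 1 SE, filled circles for adjusted p under 0.05 and open circles otherwise. Red triangles are lower bounds against tissues with 0 reads, and the grey band spans the 5th to 95th percentile of all tested genes. All 9 lie right of the band for bone minus thymus, all but Lyz2 do for bone minus skin, and Lyz2 is the only one left of 0 for thymus minus skin.

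Thymus and skin were compared to see which of the low levels differed. In thymus 5 members were called higher than in skin (Ngp, Ltf, Prg2, S100a8 and S100a9), with 19.3% of all tested genes called in that direction. None was called higher in skin, where 18.3% of genes were, and 37.6% of genes were called in either direction. Of the 9, 3 were higher in thymus by 16-fold or more (Ngp, Ltf and Prg2), against 2.81% of genes, and 5 had every thymus library above every skin library, against 27% of genes. Ltf was higher by 5.46 ± 0.37 on the log2 scale (edgeR adjusted p = 7.09e-07) and Ngp by 4.50 ± 0.42 (edgeR adjusted p = 8.94e-06). S100a9 was higher by 3.58 ± 0.33 (edgeR adjusted p = 8.76e-06) and S100a8 by 2.47 ± 0.47 (edgeR adjusted p = 0.00225). Without skin 2 the log2 difference of Ltf was 6.56, and without skin 3 those of Ngp and S100a8 were 5.42 and 3.53. The call of Prg2 (edgeR adjusted p = 0.00787) was lost with limma on log2 of RPKM plus 1 (adjusted p = 0.0857).

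Camp, Elane, Mpo and Lyz2 were not called between thymus and skin. The adjusted p was 0.105 for Camp and 0.12 for Elane by edgeR's test, but Camp was called higher in thymus without skin 2 (adjusted p = 0.0417) and Elane without thymus 2 (adjusted p = 0.0351). Mpo had 40 reads in the thymus group and 11 in the skin group (1.34 ± 0.93, edgeR adjusted p = 0.296), and the log2 difference was 0.13 without thymus 3. Lyz2 was at -0.88 ± 0.62 for thymus minus skin (edgeR adjusted p = 0.305). Without thymus 3 it was called lower in thymus, at -1.99 (adjusted p = 0.0163).

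The share of each class among the reads on the 9 genes was then compared by tissue. In bone, Ngp, Camp and Ltf together gave 38.9 ± 2.11% of the reads on the 9 genes, S100a8 and S100a9 43.9 ± 1.88%, Lyz2 7.75 ± 0.457%, Elane and Mpo 6.39 ± 0.847% and Prg2 3.04 ± 0.669% (SD, n = 3). In thymus Lyz2 gave 40.04%, 75.8% and 49.4% of these reads in libraries 2, 3 and 1-3, and Elane and Mpo 0.297%, 0.74% and 0.475%. In skin Lyz2 gave 97.5%, 95.9% and 97.6% in libraries 1, 2 and 3. Leaving Lyz2 out, the members summed to 8.48, 9.86 and 8.35 CPM in thymus 2, 3 and 1-3 and to 0.562, 0.557 and 1.19 CPM in skin 1, 2 and 3. Thymus 3, the highest thymus library in Lyz2, was thus close to the other thymus libraries in the sum of the other 8 members.

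**Figure D3:**
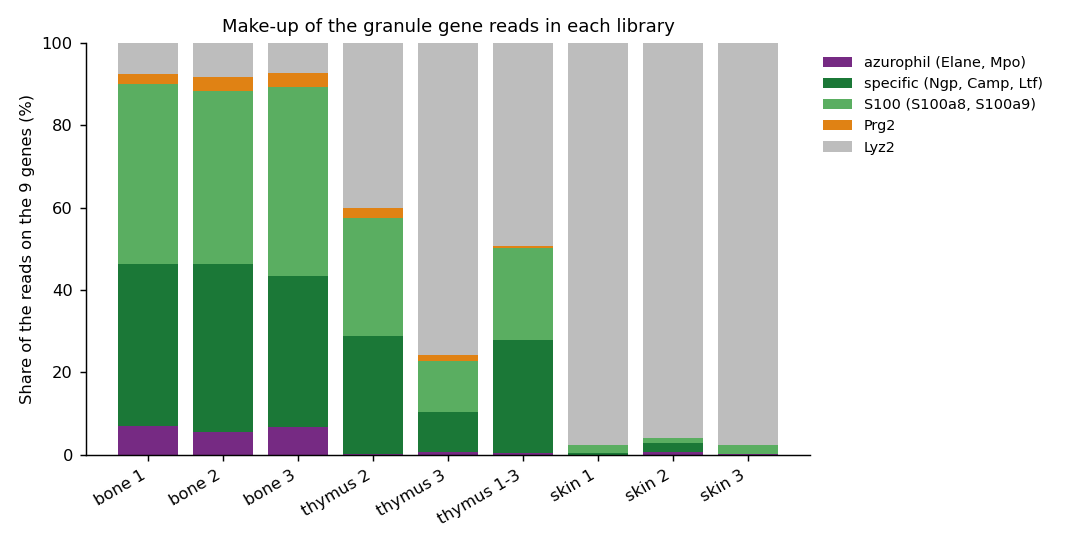
Stacked bars give the percentage of the reads on the 9 granule genes that fell on each class, for each of the 9 libraries. Lyz2 makes up 7.36 to 8.25% in the bone libraries, 40.04 to 75.8% in the thymus libraries and 95.9 to 97.6% in the skin libraries.

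Per length of transcript, as the authors' RPKM values give it, S100a8 (1892 ± 423) and S100a9 (1802 ± 294) were the 8th and 9th highest of 23034 genes in bone and had overlapping ranges. Ngp followed at 716 ± 56.9 RPKM, below every value of that pair. Lyz2 (273 ± 27.1) and Camp (272 ± 45) overlapped, as did Ltf (146 ± 13.8) and Prg2 (131 ± 39.6). Mpo (72.9 ± 16.7) and Elane (52.5 ± 16.4) were lowest, and they overlapped too. In the same libraries Ptprc, the gene of CD45, was at 13.3 ± 0.708 RPKM and Itgam, the gene of CD11b, at 15.9 ± 1.37. Every member stood above both Ptprc and Itgam, but not above every gene listed for the antibody targets. Of these, Ly6c1 was at 137 ± 19.8 RPKM, above the means of Prg2, Mpo and Elane, and Ly6c2 at 45.8 ± 6.7. Col1a1 was at 2712 RPKM there. In thymus the order changed, with Lyz2 first at 14.9 ± 14.3 RPKM, then S100a8 at 5.61 ± 0.831 and S100a9 at 4.4 ± 1.18. In skin Lyz2 was first at 18.4 ± 12.2 RPKM and no other member exceeded a mean of 0.682.

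Within bone, bone 3 was the highest of the 3 libraries for 9 of 9 members, where this held for 30.7% of tested genes. Bone 2 was the lowest for 8 members and bone 1 for the other, Prg2, against 31.5% and 39.7% of tested genes. Coefficients of variation in bone ranged from 9.41% for Ngp to 32.3% for Elane. Of the 10 listed eosinophil genes, 5 had bone 1 lowest like Prg2 (Prg3, Epx, Ear2, Ear6 and Alox15), 3 had bone 2 lowest (Ear1, Il5ra and Siglec5), and bone 1 was highest for Ccr3 and Ear10. Epx, encoding eosinophil peroxidase, was at 25.2, 36.3 and 42.6 CPM in bone 1, 2 and 3, and Ear6, an eosinophil ribonuclease gene, at 5.75, 10.9 and 12 CPM.

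Other genes of granulocytes were counted in lists, with the same shares of all genes called (16.1% against thymus and 23.7% against skin) as background. Called lower in bone were 16.5% of all tested genes against thymus and 23.4% against skin. These shares also serve for the lists of other cells below. Further genes of azurophil granules and promyelocytes were higher in bone for 4 of 4 tested against each tissue. The fifth gene of that list, Bpi, was too low to be tested, with 0 reads in bone and in skin and 22, 22 and 0 reads in thymus 2, 3 and 1-3. Prtn3 was at 31.6 ± 8.23 CPM in bone, 0.246 ± 0.0575 in thymus and 0.288 ± 0.293 in skin. Ctsg, the cathepsin G gene, was at 16.6 ± 6.45 CPM in bone with 0 reads in thymus. Ms4a3, a marker of granulocyte and monocyte progenitors, was at 11.1 ± 2.6 CPM in bone with 0 reads in either other tissue.

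Further genes of specific granules and myelocytes were higher in bone for 8 of 8 against each tissue. Lcn2, encoding the siderophore-binding protein lipocalin 2, was at 168 ± 37.3 CPM in bone, 2.89 ± 1.93 in thymus and 0.12 ± 0.196 in skin. Chi3l3, a chitinase-like gene, was at 143.5 ± 20.6 CPM in bone and 0.31 ± 0.244 in thymus. Mmp8, the neutrophil collagenase gene, was at 62.2 ± 12.2 CPM in bone and 0.12 ± 0.0761 in thymus. In this list 6 of 8 were also higher in thymus than in skin, against 19.3% of all tested genes.

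Genes of mature neutrophils were higher in bone than in skin for 11 of 11 and higher in bone than in thymus for 10 of 11. Retnlg, a resistin-like gene, was at 72.5 ± 11.2 CPM in bone and 0.152 ± 0.134 in thymus, and Csf3r, the receptor gene of the growth factor G-CSF, at 32.4 ± 11.9 and 0.585 ± 0.215. The exception was Mmp9, encoding a gelatinase that neutrophils store in tertiary granules. Mmp9 was at 87.3, 99.5 and 90.9 CPM in bone 1, 2 and 3 and at 601, 461 and 585 in thymus 2, 3 and 1-3. Its log2 difference, bone minus thymus, was -2.57 ± 0.22 (edgeR adjusted p = 4.42e-06), opposite in sign to the other 10 genes of its list.

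Eosinophil genes were higher in bone for 6 of 9 against thymus and 8 of 9 against skin. Epx was at 34.7 ± 8.81 CPM in bone and 0.0579 ± 0.0861 in thymus, and Ear1 at 20.6 ± 6.26 and 0.0587 ± 0.0586. Basophil and mast cell genes were higher in bone for 4 of 7 against thymus and 3 of 7 against skin, with Hdc, the histamine-forming enzyme gene, at 22.7 ± 4.73 CPM in bone and Mcpt8, a basophil protease gene, at 3.62 ± 0.607.

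Of 8 protease inhibitor genes 5 were higher in bone than in thymus, 1 was lower and 2 were not called, and 4 were higher in bone than in skin. Slpi, an elastase inhibitor, was at 9.79 ± 1.74 CPM in bone and 0.652 ± 0.809 in thymus. Serpinb1a, another elastase inhibitor, was at 41.9 ± 6.04 CPM in bone, 13.7 ± 0.801 in thymus and 26.5 ± 1.14 in skin. Serpina3n was the one lower in bone, at 128 ± 58.7 CPM against 264 ± 19 in thymus.

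Transcription factor genes of granulocyte development were higher in bone for 5 of 7 against thymus and 6 of 7 against skin. Cebpe, which encodes C/EBP epsilon, was at 7.42, 4.41 and 5.54 CPM in bone 1, 2 and 3, at 0.041 ± 0.0419 in thymus and at 0.0375 ± 0.0649 in skin. The PU.1 gene, listed as Sfpi1, was at 14.4 ± 4.46 CPM in bone, 0.696 ± 0.255 in thymus and 1.72 ± 1.01 in skin. Cebpa, of C/EBP alpha, was present in each tissue, at 26.5 ± 2.68, 18.7 ± 1.41 and 34.3 ± 6.29 CPM in bone, thymus and skin. Irf8, a factor gene of monocyte and lymphoid lineages, was higher in thymus than in bone, at 96.7 ± 12.9 CPM against 22.4 ± 1.72.

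**Figure D4:**
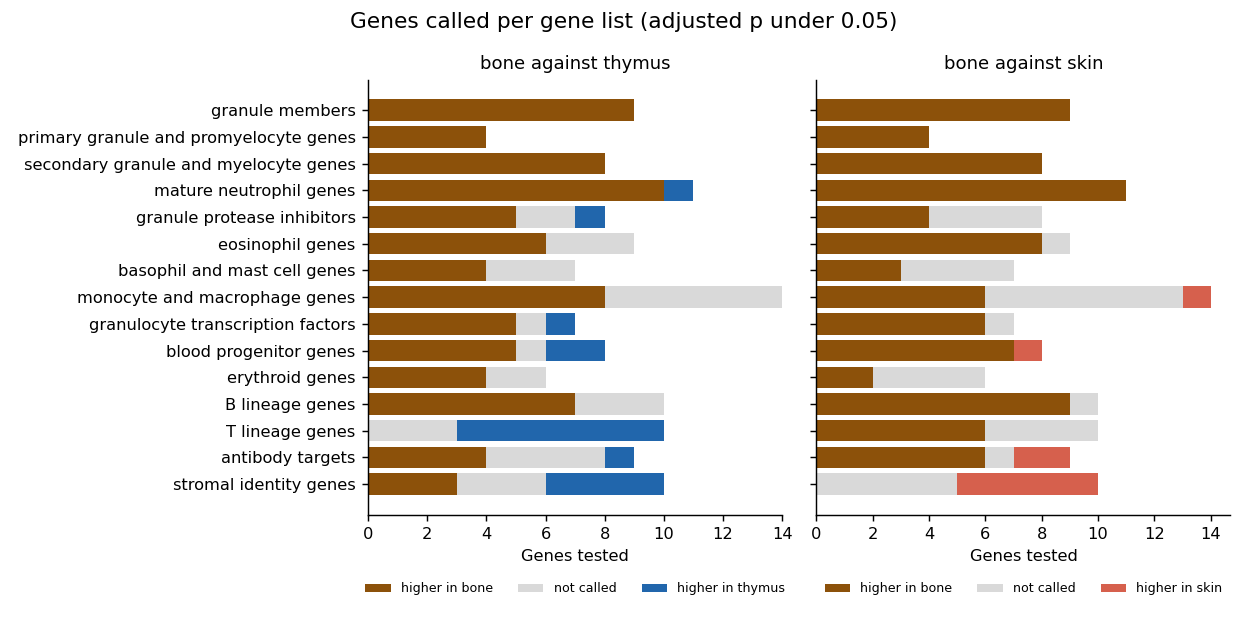
Bars count the tested genes of each list that were called higher in bone, not called, or called higher in the other tissue, with thymus on the left and skin on the right. The 9 granule genes and the lists of azurophil and specific granule genes lie wholly on the side of bone in both panels. The T lineage list has 7 of 10 genes higher in thymus than in bone, against 16.5% of all tested genes.

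Some markers of other blood cells were also higher in bone, while no T lineage gene was called higher in bone than in thymus. The part of these markers in the granule gene levels was not tested. Ptprc was at 74.4, 73.6 and 81.3 CPM in bone 1, 2 and 3, at 7.26, 38.6 and 14.1 in thymus 2, 3 and 1-3, and at 2.27, 0.484 and 1.13 in skin 1, 2 and 3. Itgam was at 73.1 ± 8.48 CPM in bone, 1.06 ± 0.453 in thymus and 3.79 ± 1.52 in skin. B lineage genes were higher in bone for 7 of 10 against thymus, and 9 of 10 against skin. Their summed level ranged from 224 to 283 CPM in bone, 89.3 to 144 in thymus and 115 to 134 in skin. Nearly all of the skin sum was Ebf1, at 124, 114 and 132 CPM in skin 1, 2 and 3. Ebf1 was at 94 ± 2.13 CPM in bone and 74 ± 22 in thymus, where Rag1 added 35.5 ± 20.3. Igll1 was at 0 reads in thymus and skin, and Vpreb3 at 0 in skin. Blood progenitor genes were higher in bone for 5 of 8 against thymus and 7 of 8 against skin, and Kit among them was at 4.42, 27.3 and 14.6 CPM in bone 1, 2 and 3. Their summed level was 588 to 673 CPM in bone, 2135 to 2326 in thymus and 3202 to 3341 in skin, mostly from Cd34, which mesenchymal cells express as well. Slamf1 and Gfi1b in that list had 0 reads in skin. Erythroid genes were higher for 4 of 6 against thymus and 2 of 6 against skin, and summed to 19.8 to 27.1 CPM in bone, 1.07 to 2.02 in thymus and 2.07 to 2.86 in skin. Hba-a1 and Hba-a2 in that list were at 0 in all 9 libraries. Their intervals on chromosome 11 overlap (32283672 to 32296491 and 32284487 to 32297310). Reads of this pair may therefore have been left uncounted, and the erythroid sums may lack them. T lineage genes summed to 5.53 to 7.25 CPM in bone, 46.3 to 121 in thymus and 0.044 to 0.542 in skin. Of these genes 7 of 10 were higher in thymus than in bone, against 16.5% of all tested genes. Ptcra and Themis were at 0 in bone, and 6 of the 10 were at 0 in skin. Of the 9 measured genes of the antibody targets, 4 were higher in bone than in thymus (Ptprc, Itgam, Ly6c2 and Itga2b) and 1 was lower (Cd4). Of 10 stromal genes 3 were higher in bone than in thymus and 4 were lower, against 16.1% and 16.5% of all tested genes. Against skin 5 were lower in bone, with 23.4% of all tested genes called in that direction.

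Monocyte and macrophage genes, whose cells share Lyz2 with granulocytes, were less one-sided. They were higher in bone for 8 of 14 against thymus and 6 of 14 against skin, with 1 lower against skin, the Lyz2 paralogue Lyz1. Their summed level was 198 to 262 CPM in bone, 155 to 179 in thymus and 94.7 to 201 in skin, with no member at 0 reads in any tissue. Csf1r, the receptor gene of the macrophage growth factor, was at 24.4 ± 8.19 CPM in bone, 3.43 ± 2.1 in thymus and 24.7 ± 4.5 in skin. Csf1r did not pass between bone and skin (-0.02 ± 0.39, edgeR adjusted p = 0.976), the pair of tissues that differed in Ngp by 14.01 on the log2 scale.

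In thymus 3 and skin 3, where Lyz2 was highest, complement C1q genes were highest of their groups as well. C1qa was at 2.04, 7.3 and 3.76 CPM in thymus 2, 3 and 1-3 and at 11, 6.8 and 30.7 in skin 1, 2 and 3. C1qb was at 1.92, 10.2 and 3.66 CPM in thymus and at 10.7, 7.18 and 24.6 in skin, in the same order. In skin the orders of the 3 libraries by Lyz2, C1qa and C1qb were the same, as they were in thymus. In bone they were not, since bone 1 was highest in C1qa and C1qb and bone 3 in Lyz2. Thymus 3 was also the highest thymus library in Ptprc and in the summed T lineage genes (121 CPM, against 46.3 in thymus 2 and 71.1 in thymus 1-3).

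**Figure D5:**
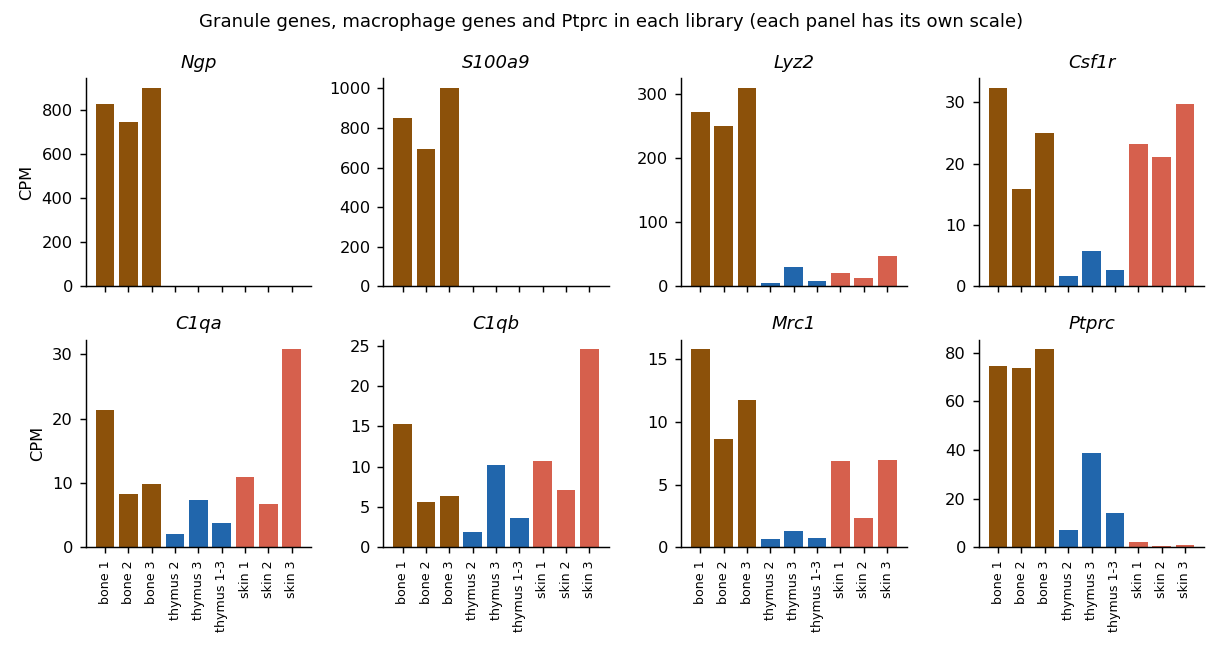
Bars give the level in CPM in each library for Ngp, S100a9, Lyz2, 4 macrophage genes and Ptprc, each panel with its own linear axis from 0. Ngp and S100a9 are visible in bone alone at this scale, Csf1r is at like levels in bone and skin, and Lyz2, C1qa and C1qb peak at thymus 3 within thymus and at skin 3 within skin.

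The genes whose profiles were most like those of members were sought by the distance between centred log2 CPM profiles over the 9 libraries. For Lyz2 they were Tyrobp (distance 0.853), Cd300ld (1.2), Susd1 (1.26) and Themis2 (1.27). Tyrobp, the gene of a signalling adaptor of myeloid and natural killer cells, was at 27.8 CPM in bone, 1.53 in thymus and 2.61 in skin on average, with thymus 3 and skin 3 again highest of their groups. For Elane they were Mmp8 (1.33), Cd177 (1.58), Epx (1.58) and Retnlg (1.6), all 4 of them in the granulocyte lists.

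For Ngp, the closest were Comp (1.98), Col22a1 (1.99), Chi3l3 (2.91) and Col10a1 (3.37). Comp, Col22a1 and Col10a1 are matrix genes of cartilage and its junctions. For S100a9 they were Col22a1 (1.15), Comp (2), Chi3l3 (2.62) and Htra4 (2.97), and for Prg2 Htra4 (1.95), Cilp2 (2.32), Col22a1 (2.34) and Cd177 (2.48). High levels in bone and low levels in thymus and skin were thus shared by granulocyte genes and by skeletal matrix genes. With 3 libraries per tissue, this measure mainly ranks genes by the differences between tissues. Among the members, Ngp and S100a9 (distance 1.42) and S100a8 and S100a9 (1.44) were closest, and Lyz2 was 7.04 or more from every other member.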

How the data were processed

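RNA was sequenced from 9 libraries, 3 each of thymus, bone and skin, and the deposited files of each library were a gene count table, an RPKM table and a coverage table. The authors deposited read counts per gene, made with CASAVA 1.8.2 and HTSeq 0.5.4 on build mm10, per the submitters' processing notes. The sources used here do not give the aligner, the annotation or the strand setting. The deposited RPKM values, scaled by gene length and library size by the authors, served for comparing levels between genes. The deposited coverage signal per gene was used only to check the counts, with a median signal per read of 98.5 to 99.1.

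Lines of the count tables that name no gene, 5.05% to 14.8% of a library's reads, were left out of library sizes. Samples were grouped by the tissue in their labels. Counts were fitted with edgeR 4.0.16 in R 4.3.3 (TMM scaling, filterByExpr, robust quasi-likelihood test), all 3 tissues in one fit without covariates, so that they share one estimate of spread. P-values were adjusted over 15635 genes by Benjamini-Hochberg and called under 0.05. Standard errors were worked back from the test statistic and are approximate. The script was tested on simulated counts. Against 0 reads, folds are lower bounds at a floor of 3 reads over the tissue's libraries. Profiles for likeness used log2 of CPM plus 0.1. Promoter windows came from RefSeq, which held 8 of the 9 members.

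Alternatives were other scalings and filters, DESeq2 1.42.0, limma 3.58.1 on log2 of RPKM plus 1 or plus 0.1, only the 2 tissues compared, the replicate number as a block, and each library left out. Libraries that share a number did not deviate together, with correlations of -0.0823 to 0.091. The members and lists were chosen with earlier results of these data known. Text names all members, the 3 most abundant genes of each list, the 4 genes nearest to Elane, Ngp, S100a9, Prg2 and Lyz2, and Ly6a, Ptprc, Itgam, Ly6g and Mmp9. C1qb, Cebpe, Sfpi1, Cebpa, Ly6c2, Itga2b, Cd4, Lyz1, Bpi, the further eosinophil genes and the genes named for 0 reads were chosen after their values were seen. A few list genes that this rule or a count of 0 reads would name are not reported here.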

Additional observations from a re-analysis of the deposited data

How the results depend on the processing

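The 18 bone results (9 members against thymus and against skin) were recomputed under 19 alternatives, and all 342 values were called and higher in bone. For thymus against skin the number of members called higher in thymus was 5, and 4 to 6 under the alternatives. It was 6 with library size only, and the calls that changed were those of Camp, Elane and Prg2. Camp was called with library size only (2.81, edgeR adjusted p = 0.0272), with limma on log2 of RPKM plus 0.1 (1.47, adjusted p = 0.0219) and without skin 2 (4.21, edgeR adjusted p = 0.0417). The number of members called higher in skin was 0, and 0 to 1 when single libraries were left out, the call being Lyz2 without thymus 3. No direction of a called member reversed. Without Lyz2 the share of gene reads was 0.393% in bone, 0.00102% in thymus and 5.68e-05% in skin. With library size only the median log2 difference of all genes was 0.72 for bone minus skin and 0.66 for thymus minus skin, against 0.03 for both with TMM scaling. The genes called higher and lower were then 7474 and 1391 for bone against skin, in place of 3702 and 3661, and 7219 and 1239 for thymus against skin, in place of 3013 and 2865. With the replicate block 1736 genes were called higher in bone and 1663 higher in thymus, in place of 2517 and 2584. The block left the members' calls at 9, 9 and 5. The labels do not say whether libraries that share a number are paired. Counts under 30 reads per library, as for Elane and Mpo outside bone, limit the comparison of thymus with skin.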
